A study of Mus musculus with 3 samples.

Results

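The genes described here encode 5 receptor tyrosine kinases, Ntrk2, Ntrk3, Ret, Alk and Ros1, out of 21138 gene names on a mouse copy number array. They were chosen because each becomes an oncogene in human tumours when its kinase end is joined to another gene. Every probe that carries a kinase's name on the array and every probe within 500 kb on each side was taken, whatever its value. This gave 174 named probes and 529 probes in the windows, out of 170305.

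Array comparative genomic hybridisation was run on 3 neurosphere lines, free-floating cultures of tumour cells, from mouse gliomas that had become resistant to an inhibitor of CSF1R, the receptor that keeps macrophages and microglia alive. On each array, DNA of 1 line carried Cy5 and DNA of mouse liver carried Cy3. The lines were taken at passages 2 to 3 and form 1 group, with no untreated or sensitive line beside them. Line 1 has an animal number of its own, and lines 2 and 3 share another animal number and a liver label, so the 3 lines come from 2 numbered animals. The arrays were on the same slide and no dyes were swapped, so dye and slide effects cannot be told apart from a change that all lines share. Strain, tumour genotype and age of the animals are not stated in the labels. DNA ratios do not show which cells a culture holds, so its identity as glioma could not be checked by marker genes.

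A receptor tyrosine kinase spans the cell membrane, binds a ligand outside the cell and adds phosphate to tyrosines inside it. TrkB, the product of Ntrk2, binds brain-derived neurotrophic factor, and TrkC, the product of Ntrk3, binds neurotrophin 3; both act in the survival and growth of neurons. Ret is the shared receptor of the GDNF family, which it binds together with GFRα co-receptors, and Alk is a receptor of the insulin receptor superfamily that acts in the developing nervous system. Ros1 is bound by NELL2 in the mouse epididymis. In human tumours, infant and paediatric gliomas among them, fusions keep the 3′ part of the kinase gene, which encodes the kinase domain. A fusion that goes with loss or gain of DNA leaves a step in copy number inside the gene, whereas a balanced exchange leaves none and cannot be seen by this assay.

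The values below are log2 ratios of line over liver, centred on the median of the autosomes of each array, so 0 is the level of most of the genome. If all cells of a line went from 2 copies to 3, the ratio would be 0.585, and with 1 copy left it would be -1. Single probes were noisy, with a spread per probe of 0.384 (line 1), 0.232 (line 2) and 0.238 (line 3), estimated from differences between neighbouring probes. Much of a probe's ratio recurred from array to array, with Pearson's r over 161449 autosomal probes of 0.70 (lines 1 and 2), 0.64 (lines 1 and 3) and 0.82 (lines 2 and 3). Probes are not independent replicates, and the arrays share slide, dyes and probe sequences. Liver DNA was well above background at 96.3% to 99.1% of spots, no spot was saturated, and all 174 named probes of the kinases but 2 (1 in Ntrk2 and 1 in Alk, both on the array of line 1) were well above background in liver DNA on every array. Having 3 arrays sets the precision of all values across lines.

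Single probes weigh most where a gene has few, so the probes themselves are shown for Ret, which has the fewest, and for the highest and lowest probe of Ntrk2, which are neighbours. Capitals mark G and C, the bases that pair most strongly, and the letters run as in the deposited files, where the strand is not stated. The 6 Ret probes lie on chromosome 6 (mm9) in order of coordinate:
Ret probe at chr6:118105948-118106007: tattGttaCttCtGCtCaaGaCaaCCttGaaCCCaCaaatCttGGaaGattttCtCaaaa
Ret probe at chr6:118115351-118115410: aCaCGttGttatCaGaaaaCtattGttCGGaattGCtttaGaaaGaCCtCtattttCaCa
Ret probe at chr6:118122050-118122109: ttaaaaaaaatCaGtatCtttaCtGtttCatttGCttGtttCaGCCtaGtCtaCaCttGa
Ret probe at chr6:118128231-118128290: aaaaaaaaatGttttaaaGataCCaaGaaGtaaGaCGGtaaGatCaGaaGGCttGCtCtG
Ret probe at chr6:118137353-118137412: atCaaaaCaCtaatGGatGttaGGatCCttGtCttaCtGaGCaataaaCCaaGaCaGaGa
Ret probe at chr6:118144411-118144470: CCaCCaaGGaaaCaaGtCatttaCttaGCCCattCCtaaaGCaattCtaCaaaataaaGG
Ntrk2 probe at chr13:58974016-58974075: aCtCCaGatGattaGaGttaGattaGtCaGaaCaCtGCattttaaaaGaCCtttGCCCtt
Ntrk2 probe at chr13:58979758-58979817: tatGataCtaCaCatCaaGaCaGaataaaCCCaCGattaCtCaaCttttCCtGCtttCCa
The Ret probes hold 18 to 22 G or C bases out of 60, and both Ntrk2 probes hold 22. Exon and intron annotation of mm9 was not used here.

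In Ntrk2, the probe at 58974016 read 0.57 in line 1, 0.83 in line 2 and 0.52 in line 3. The next probe, 5742 bases further on, read -0.73, -0.49 and -0.53. Neighbours with the same count of G and C thus stood on opposite sides of 0 in all 3 lines. Over all autosomal probes, 0.797% were above 0.5 and 0.698% below -0.5 in all 3 lines, and of the 174 named probes only this Ntrk2 probe was above 0.5 and none was below -0.5 in all lines.

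Over whole genes, no gain or loss of any of the 5 kinases was seen in the 3 lines. The gene means lay between -0.22 and 0.11 over the 15 combinations of gene and line, far from the level of a lost or gained copy. The 95% interval over probes lay between -1 and 0.585 in 15 of 15 combinations and held 0 in 13. Both exceptions were in line 3, where Ret was lower (-0.41 to -0.02) and Ros1 was higher (0.01 to 0.21). In the fit across the lines (limma, 2-sided, Benjamini-Hochberg over all genes with at least 3 probes), 0 of 5 kinases passed an adjusted p of 0.05, against 24.1% of the 9462 genes tested. No kinase had an unadjusted p under 0.05 in this fit. The median of the 5 means was -0.04, beside 0.01 over all genes tested. These p-values rest on the spread among 3 lines from 2 numbered animals, which limma moderates towards a spread pooled over all genes tested. They take in no other error, and an exact sign flip over 3 values cannot go below 0.25.

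**Figure D1:**
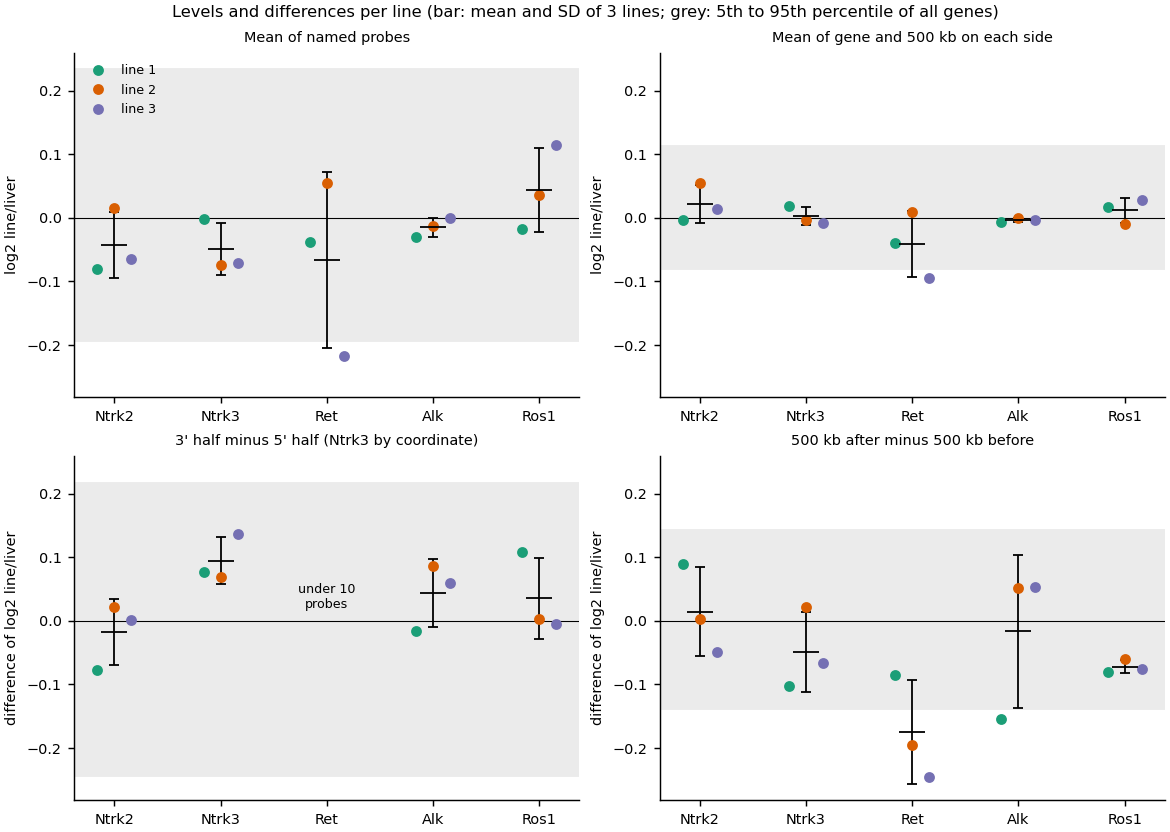
Log2 line over liver (upper panels) and differences of it (lower panels) for the 5 kinases, with 1 point per line, a bar for the mean and SD of the 3 lines, and a grey band for the 5th to 95th percentile of the means of all genes tested. The means of Ret in line 3 and the flank differences of Ret in lines 2 and 3 lie outside the grey bands, as do the window mean of Ret in line 3 and the flank difference of Alk in line 1.

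The neurotrophin receptors did not differ from the autosomal median past the threshold. Ntrk2 (chr13:58914058-59220095, 32 named probes, plus strand) had gene means of -0.08, 0.02 and -0.06 in lines 1, 2 and 3. The 3 values lie on both sides of 0, with a mean of -0.04 ± 0.05 (SD, n = 3; adjusted p = 0.471). Ntrk3 (chr7:85344544-85721931, 43 named probes) had gene means of -0.00173, -0.07 and -0.07. All were below 0, with line 1 nearest to it, and their mean of -0.05 ± 0.04 (SD, n = 3) did not pass (adjusted p = 0.397). In every line the mean of Ntrk2 and that of Ntrk3 lay below the means of both flanks of 500 kb, a difference that was not tested. For Ntrk2 the flanks averaged from -0.00762 to 0.08, and for Ntrk3 from 0.00499 to 0.11.

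Ret (chr6:118105948-118144470, 6 named probes) varied most between lines. Its gene means were -0.04, 0.06 and -0.22 in lines 1, 2 and 3. Line 3 stood apart from both others, and the mean over lines was -0.07 ± 0.14 (SD, n = 3; adjusted p = 0.399). The 6 probes of line 3 ranged from -0.51 to -0.01, and all 6 lay below 0. In lines 1 and 2, 2 of the 6 lay below 0. The last probe printed above was the lowest in each line, at -0.43, -0.34 and -0.51. Every Ret probe was lower in line 3 than in line 2, the lines that share an animal number and a liver label, with differences from -0.46 to -0.17. The mean difference was -0.27 (95% interval over 6 probes, -0.38 to -0.16). A difference of at least 0.25 in size between these lines was seen in 1.22% of the 9462 genes, so Ret lay at the 99.3rd percentile of size. This is 1 line against 1 line, with no replicate check.

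Alk and Ros1 also stayed near 0. Alk (chr17:72225306-72950223, 77 named probes, minus strand) had gene means of -0.03, -0.01 and -0.000700 in lines 1, 2 and 3. With the most probes of the 5 it had the smallest spread between lines, and its mean was -0.01 ± 0.01 (SD, n = 3; adjusted p = 0.801). Ros1 (chr10:51770157-51914205, 16 named probes, minus strand) had gene means of -0.02, 0.04 and 0.11. Line 3 was highest, and the mean of 0.04 ± 0.07 (SD, n = 3) did not pass (adjusted p = 0.477). In the order of the means, from Ret over Ntrk3, Ntrk2 and Alk to Ros1, the ranges of neighbouring genes overlapped at every step.

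The other kinases differed less between lines. Line 3 minus line 2 was -0.08 (95% interval over probes, -0.13 to -0.03) for Ntrk2 and 0.08 (0.03 to 0.13) for Ros1, at the 61.7th and 60.9th percentile of size over all genes. For Ntrk3 it was 0.00300 (-0.12 to 0.13) and for Alk 0.01 (-0.02 to 0.05). The mean of lines 2 and 3 minus line 1, which sets 1 animal number against the other, held 0 in its interval for Ntrk2, Ret, Alk and Ros1. For Ntrk3 it was -0.07 (-0.10 to -0.04). These are differences between single arrays, and the intervals cover probe error only.

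Adding the 500 kb on each side narrowed the range of the levels. The window means ran from -0.09 to 0.06 over the 15 combinations, and 15 of 15 intervals over probes held 0. Ntrk2 (94 probes) read -0.00366, 0.06 and 0.01 in lines 1, 2 and 3. Ntrk3 (106 probes) read 0.02, -0.00269 and -0.00803, and Alk (160 probes) read -0.00603, -0.000880 and -0.00383. These 3 windows lay near 0 in every line. Ros1 (83 probes) read 0.02, -0.00986 and 0.03. Ret (86 probes) read -0.04, 0.00925 and -0.09. Line 3 was again the lowest for Ret, and its difference from line 2 of -0.10 was at the 95.6th percentile of size over all windows. In limma, 0 of 5 windows passed, against 44.0% of 21123 windows tested. The adjusted p was 0.131 for Ret and between 0.454 and 0.938 for the others, and no unadjusted p was under 0.05. The window of Ret passed with the authors' value table (-0.09, adjusted p = 0.00727) and with 250 kb on each side (-0.07, adjusted p = 0.0284), settings under which 39.3% and 43.0% of all windows passed.

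**Figure D2:**
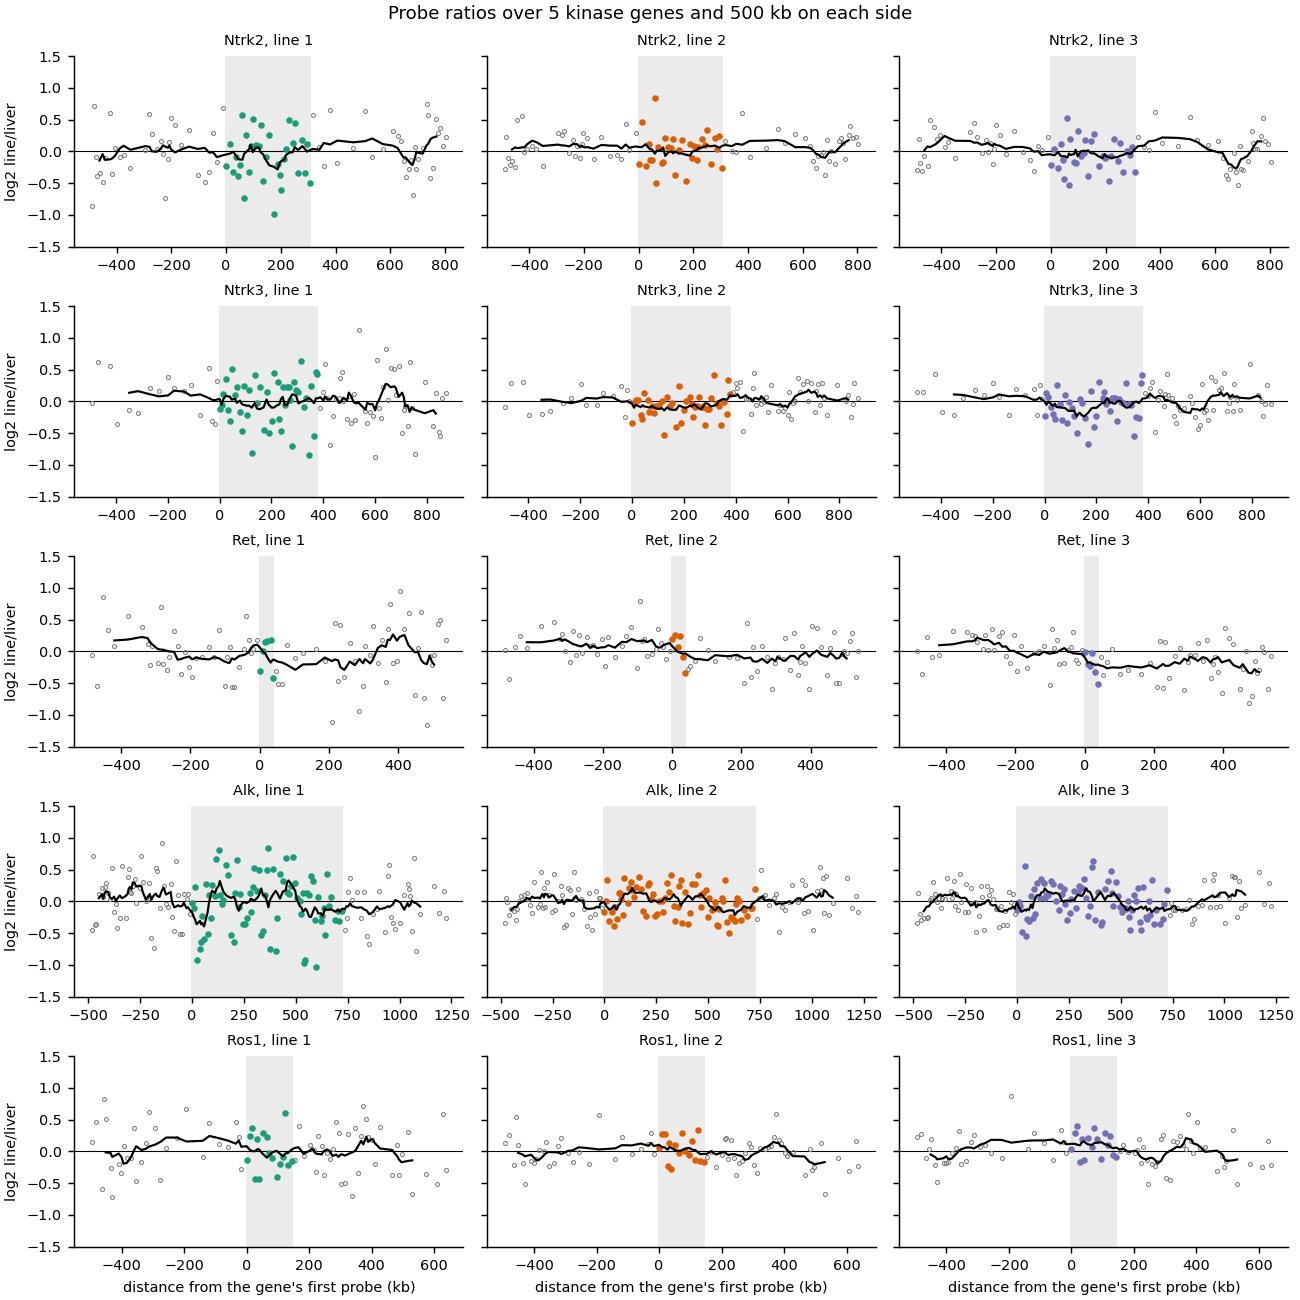
Log2 line over liver of each probe against distance from the gene's first probe in kb, for 5 kinases (grey background, filled points) and 500 kb on each side (open points) in 3 lines. The black line is the running mean of 9 probes; it lies below 0 beyond Ret in line 3, and in line 1 it moves up and down most within Alk.

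Steps inside the genes were looked for next, since an unbalanced fusion would leave the kinase end at another level than the other end. The mean of the 3′ probes minus that of the 5′ probes, split at the middle probe, was tested in the 4 kinases with at least 10 probes. The strand of Ntrk3 is not in the table used here, so its difference is between higher and lower coordinates. Of these 4 differences 0 passed, against 27.6% of the 2785 genes tested. Ntrk2 gave -0.08, 0.02 and 0.00141 in lines 1, 2 and 3 (adjusted p = 0.734). Alk gave -0.02, 0.09 and 0.06 (adjusted p = 0.408), and Ros1 gave 0.11, 0.00319 and -0.00532 (adjusted p = 0.520). In these 3 genes the lines differed in sign. Ntrk3 gave 0.08, 0.07 and 0.14, above 0 in 3 of 3 lines, with a mean of 0.09 ± 0.04 (SD, n = 3; unadjusted p = 0.0363, adjusted p = 0.0941). Without line 1 it passed (adjusted p = 0.0361), as did 41.1% of all genes. With normexp correction the mean was -0.02, with loess 0.00566 and with the authors' value table -0.00884, so its sign depended on the setting.

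A search over every split with at least 5 probes on each side found no step of at least 0.3 that was also 4 times its error, in 0 of the 12 combinations of these 4 genes and 3 lines. Such steps were called in 0.0359% of genes in line 1, 0.215% in line 2 and 0.682% in line 3. The rule is hard to meet in a gene with few probes on a noisy array. In line 1 the step of -0.11 at the middle of the 16 Ros1 probes was -0.56 times its error. A step of 0.585 there would also have stayed under 4 times its error, so the search could not have called it. The farthest step from 0 was in Alk in line 1, where the probes after the first 8 stood 0.39 higher, at 2.72 times its error. At the same split the step was 0.13 in line 2 and 0.18 in line 3. In lines 2 and 3 the search gave another place in Alk, between the probes that end at 72712538 and start at 72722627, with a step of -0.17 in each line. It was -3.05 times its error in line 2 and -2.94 times in line 3. Line 1, whose values did not choose that place, had a step of -0.17 there too. Its probe values are correlated with those of lines 2 and 3, as given below, so this is not an independent reading. The 52 probes at lower coordinates, towards the 3′ end, averaged 0.02, 0.04 and 0.05 in lines 1, 2 and 3, and the 25 at higher coordinates, towards the 5′ end, averaged -0.14, -0.13 and -0.12. The same small step was thus present in lines from both animals, as were the rises and dips of single Alk probes. In line 1 the 95% intervals of the lower part (-0.24 to 0.29) and the upper part (-0.31 to 0.02) overlapped. The intervals of the 2 parts overlapped in lines 2 and 3 as well. There, where the values chose the place, the upper part lay below 0 (-0.21 to -0.05 in line 2 and -0.20 to -0.03 in line 3). Over the 77 Alk probes, Pearson's r was 0.80 for lines 1 and 2, 0.73 for lines 1 and 3 and 0.79 for lines 2 and 3, a description of arrays that share slide, dyes and probes.

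**Figure D3:**
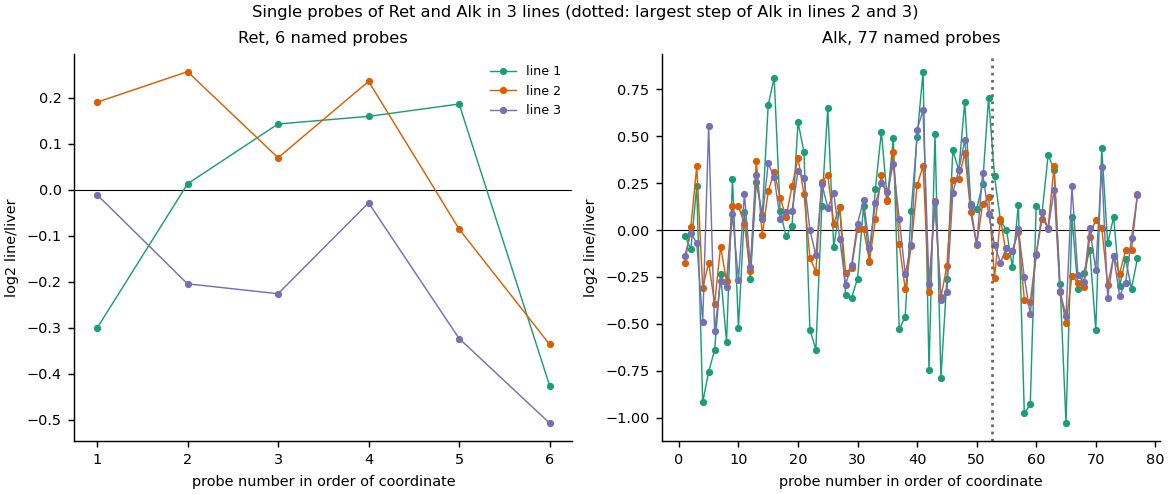
Log2 line over liver of single named probes of Ret (left, 6 probes) and Alk (right, 77 probes) in order of coordinate, with 1 coloured line per neurosphere line; the vertical scales differ. All 6 Ret probes of line 3 lie below 0 and below line 2, and the Alk probes of the 3 lines go up and down together.

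The flank after Ret had a lower mean than the flank before it in all 3 lines. The mean of the 42 probes in the 500 kb after Ret minus that of the 38 probes in the 500 kb before it came to -0.08, -0.19 and -0.25 in lines 1, 2 and 3. All 3 lines lay on 1 side of 0, with a mean of -0.17 ± 0.08 (SD, n = 3; limma, adjusted p = 0.00172; exact sign flip, 2-sided, p = 0.25, the smallest it can give). Of the 5 kinases 1 passed this test, and 33.2% of the 20856 genes tested passed it as well. The size for Ret was at the 95.6th percentile of all genes. The probes on each side held 37.3% G or C, a value of the probes alone. The base composition of the DNA between them was not tested. Ret passed in 12 of 12 alternatives, with means from -0.22 to -0.10.

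At the main settings, with 500 kb on each side, the other kinases showed no flank difference past the threshold. Ros1 gave -0.08, -0.06 and -0.08 in lines 1, 2 and 3, with a mean of -0.07 ± 0.01 (SD, n = 3; adjusted p = 0.0589). It was on 1 side of 0 in 3 of 3 lines with little spread, and it passed with the authors' value table (29.6% of all genes passed) and without line 1 (42.6%). Ntrk2 gave 0.09, 0.00322 and -0.05 (adjusted p = 0.746), and Ntrk3 gave -0.10, 0.02 and -0.07 (adjusted p = 0.233). For Ntrk2 the sign depended on the setting, at -0.09 with normexp correction and 0.11 with 1 Mb on each side, both past the threshold. For Ntrk3 it did too, at -0.13 with the authors' value table (adjusted p = 0.00544) and 0.04 with 1 Mb on each side. Alk gave -0.15 in line 1, 0.05 in line 2 and 0.05 in line 3 (adjusted p = 0.768), so the line from the other animal went the other way. The mean of lines 2 and 3 stood 0.21 above line 1, a difference reached in size (at least 0.2) by 1.81% of genes. It rests on 1 array, the one with the widest probe spread. With 1 Mb on each side Alk passed at a mean of -0.08 (limma, adjusted p = 0.0288), as did 37.0% of all genes.

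Dividing each chromosome into segments, at a penalty of 10 log(n) and with segments of 10 probes or more, gave 0 segments past 0.2 in size in any line, so 0.0% of all genes and none of the kinases lay in a called one. At a penalty of 2 log(n) and with segments of 5 probes or more, 1 of the 15 combinations of kinase and line lay in a called segment. It was Ret in line 3, in a segment of 77 probes at chr6:118115351-118945579 with a mean of -0.21 (95% interval, -0.25 to -0.16). At that setting 1.87% of all gene names lay in a called segment in line 3, 0.662% in line 2 and 0.0852% in line 1. The lower edge of the segment fell between the first and the second Ret probe printed above, so 5 of the 6 Ret probes were inside. The stretch was chosen by its values in line 3, which are therefore a description.

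Lines 1 and 2 did not choose the stretch, but their values there are not independent of the choice. Over the probes of the Ret window, Pearson's r was 0.67 for lines 1 and 3 and 0.84 for lines 2 and 3. Probes picked as low in line 3 therefore tend to be low in the other lines too. Line 1 averaged -0.06 there, with a 95% interval that held 0 (-0.19 to 0.07), and line 2 averaged -0.07 with one that did not (-0.12 to -0.03). Of the 77 probes, 60 lay below 0 in line 3, 43 in line 2 and 39 in line 1. Line 3 was below line 2 at 66 of the 77 probes, by a mean of -0.13 (-0.19 to -0.08). Because line 3 chose the stretch, this difference and its interval are a description as well. The 72 probes of the stretch that do not carry the name Ret averaged -0.20 (-0.26 to -0.14) in line 3. They are most of the probes by which the stretch was chosen, so this too is a description. A loss of 1 of 2 copies in every cell (-1) lies far outside these intervals.

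On neither side of the stretch did the mean of line 3 over 500 kb lie below 0. The edges were set by the values of line 3, so its higher level outside them is a description too. In the 500 kb before it the means were -0.00354 in line 1, 0.11 in line 2 and 0.04 in line 3, and in the 500 kb after it they were 0.12, 0.12 and 0.08. Line 3 minus line 2 was -0.07 (-0.12 to -0.02) before the stretch and -0.04 (-0.10 to 0.01) after it. The whole of chromosome 6 averaged between -0.0106 and -0.00595 in the 3 lines. Within the stretch, the 42 probes of Cacna1c, which encodes a voltage-gated calcium channel, averaged -0.07, -0.07 and -0.23 in lines 1, 2 and 3. The 7 probes of Ankrd26 averaged 0.20, -0.08 and -0.16, and the 3 probes of Bms1, a ribosome biogenesis factor, averaged 0.05, -0.05 and -0.11. Line 3, whose values chose the stretch, was the lowest in each of these. The 3 probes of Zfp248, a zinc finger gene, went another way at -0.55, -0.29 and -0.24, with line 1 the lowest, and the single probe of Zfp9 read -0.06, -0.13 and -0.06, with line 2 the lowest.

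**Figure D4:**
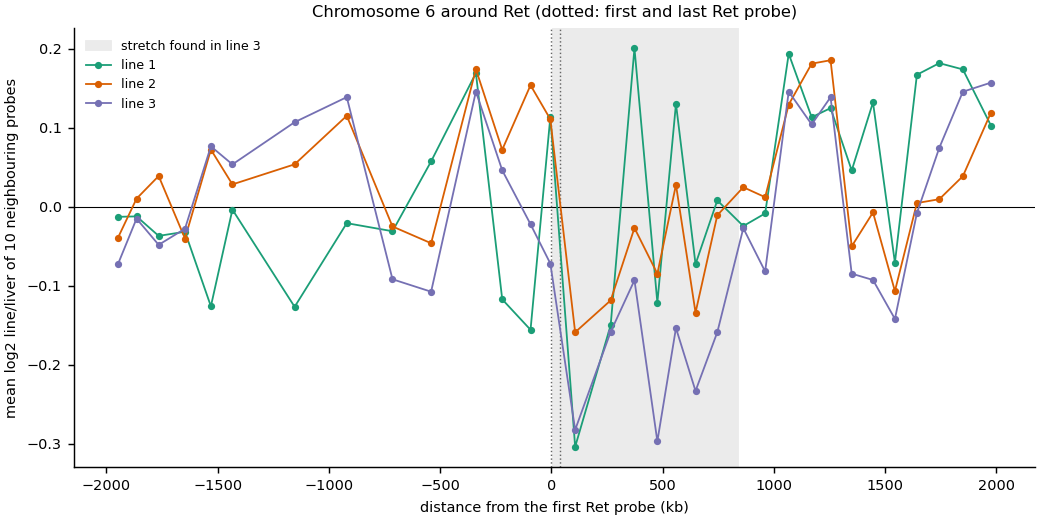
Mean log2 line over liver of 10 neighbouring probes against distance from the first Ret probe in kb, for 3 lines over 2 Mb on each side of Ret. Inside the grey stretch, found in line 3, line 3 stays below 0 throughout, while lines 1 and 2 lie above 0 in some bins.

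With the split confined to the gene but all probes of the window used, an alternative chosen after seeing the data, Ret had a step of -0.21 in line 2 and -0.25 in line 3, and -0.10 in line 1. A step of at least 0.2 in size was found in this way in 9.92% of 9411 genes in line 1, 1.92% in line 2 and 5.17% in line 3. Both Ret steps lay at the 98.5th percentile of their line. In line 2 the split fell between the fourth and the fifth Ret probe and in line 3 between the first and the second. No other kinase had a step of that size, the largest being -0.17 for Alk in line 1.

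The pair of neighbours Gopc and Ros1 was examined on its own, because the human glioma fusion of GOPC with ROS1 comes from a deletion between the 2 genes, which are neighbours in the mouse as well. The 14 probes between the named probes of both (chr10:51914206-52064359, 150 kb) averaged 0.02 in line 1 with a 95% interval over probes of -0.11 to 0.16. Line 2 gave -0.05 (-0.15 to 0.05), and line 3 gave -0.06 (-0.17 to 0.05). All 3 intervals held 0 and none came near -1. Gopc, a Golgi protein gene with 4 probes, averaged -0.11 in each line (adjusted p = 0.0711). The 692 probes between Alk and Eml4, its partner in human lung cancer and on the same chromosome in the mouse, averaged -0.02, -0.01 and -0.02, and Eml4 itself (14 probes) averaged 0.13, -0.04 and -0.02 (adjusted p = 0.725). No loss of the DNA between Ros1 and Gopc or between Alk and Eml4 was seen. A balanced exchange that joined either pair would leave these values unchanged, so they cannot show whether one took place.

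The windows hold 57 other gene names, of which 29 had at least 3 probes. Of these 29, 3 passed the gene test (10.3%, against 24.1% of all genes tested). Naa35, a subunit of an N-terminal acetyltransferase beyond Ntrk2, was higher in 3 of 3 lines at 0.27, 0.19 and 0.14 (mean 0.20 ± 0.07, SD, n = 3; adjusted p = 0.0160). Nus1, needed for dolichol synthesis and lying beyond Ros1, was higher at 0.48, 0.30 and 0.25 (mean 0.34 ± 0.12, SD, n = 3; adjusted p = 0.00627). Zfp248 was lower (mean -0.36 ± 0.16, SD, n = 3; adjusted p = 0.00762). Nus1 and Zfp248 rest on 3 probes each and Naa35 on 6.

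Among the ligands and co-receptors of the kinases 1 gene passed the test. Of 19 listed, 15 had probes and 9 could be tested, 0 were higher and 1 was lower, where 14.2% of all genes were higher and 9.96% lower. It was Ntf3, which encodes neurotrophin 3, the ligand of TrkC, at -0.29, -0.15 and -0.19 in lines 1, 2 and 3 over 6 probes (mean -0.21 ± 0.07, SD, n = 3; adjusted p = 0.0139). Its window was at -0.15, -0.06 and -0.20, the lowest window mean of the list. The median of the 9 means was 0.00420, beside 0.01 over all genes.

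Of 20 adaptors and effectors that bind the activated receptors, 14 could be tested, 2 were higher and 0 were lower, where 14.2% of all genes were higher and 9.96% lower. Grb2, the adaptor that links receptors to Ras, was at 0.26, 0.18 and 0.05 over 5 probes (mean 0.16 ± 0.11, SD, n = 3; adjusted p = 0.0436), and its window was at 0.11, 0.19 and 0.14. Sh2b2, an adaptor of Trk and insulin receptors, was at 0.37, 0.23 and 0.14 over 3 probes (mean 0.25 ± 0.12, SD, n = 3; adjusted p = 0.0139), whereas its window was at 0.06, 0.08 and 0.04. The median of the 14 means was 0.01, the same as over all genes.

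Of 24 genes known as fusion partners of these kinases in human tumours, 16 could be tested, 1 was higher and 0 were lower, against the same 14.2% and 9.96% of all genes. Vcl, which encodes the adhesion protein vinculin, was at 0.28, 0.16 and 0.20 over 12 probes (mean 0.21 ± 0.06, SD, n = 3; adjusted p = 0.0122), with its window at 0.04 in each line. Of 9 kindred receptors 5 could be tested, 0 were higher and 1 was lower, beside 14.2% higher and 9.96% lower over all genes. Ddr2, a collagen receptor, was at -0.25, -0.19 and -0.27 over 11 probes (mean -0.24 ± 0.04, SD, n = 3; adjusted p = 0.00830), with its window at -0.03, -0.02 and -0.06. Each of the 5 listed genes that passed had a window mean nearer to 0 than its gene mean.

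**Figure D5:**
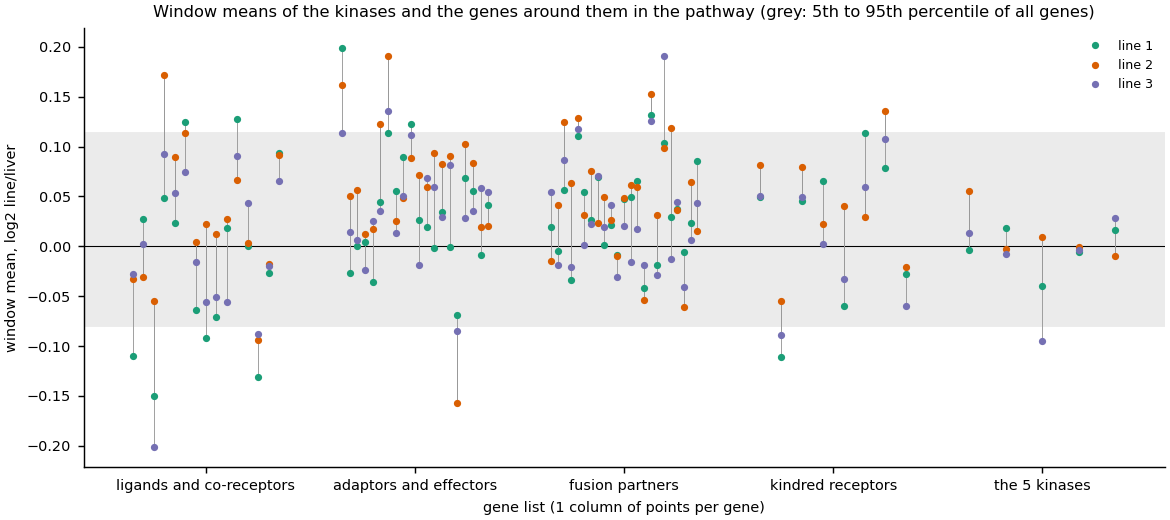
Window means (log2 line over liver, gene and 500 kb on each side) of the listed genes and the 5 kinases, with 3 points per gene for the 3 lines joined by a grey line, and a grey band for the 5th to 95th percentile of all genes. The points lie between -0.20 and 0.20, and those of the kinases are inside the band except Ret in line 3.

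The genes whose 3 gene means lay nearest to those of a kinase, among genes on other chromosomes with at least 10 probes, were sought by Euclidean distance over the 3 lines. They included Stac (distance 0.0224) for Ntrk2, and were Cntnap5a (0.00784) and Adamts19 (0.0117) for Ntrk3, and Pla2g4a (0.0100) and Mthfd1l (0.0128) for Alk. For Ros1 they were Bnc2 (0.0183) and Chrdl1 (0.0273). Within a distance of 0.05 there were 47 genes for Ntrk2, 79 for Ntrk3, 134 for Alk and 36 for Ros1. Ret had 0 genes that near out of 2618. It has 6 named probes, fewer than any gene compared, so its count is not on equal terms with the others. The nearest to Ret were Clec16a (0.0618), at -0.00211, 0.00509 and -0.22, and Abr (0.0708), at -0.08, 0.03 and -0.17. Line 3 was the lowest of the 3 lines in both.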

How the data were processed

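The authors deposited spot intensity values that Agilent Feature Extraction 10.7.3.1 had background-subtracted and dye-normalised, per the file headers, beside its own log10 ratio (Cy5 over Cy3). Their value table, also deposited as log10, served as an alternative. Its column medians were 0.000435, -0.00146 and -0.00271, and its r with the scanner ratios was 0.844 to 0.884, which settles direction; its centring is not stated. From the deposited intensities, log2 of Cy5 over Cy3 was computed, control spots (6575 of 180880) and outlier spots (160 to 179) were left out, spots of a probe were averaged and autosomal medians set to 0. Coordinates and names are those of the files (mm9); RefSeq names of GRCm38.p6 gave strands. All genes were fitted with limma 3.58.1 (R 4.3.3; lmFit, eBayes, Benjamini-Hochberg), after a check on simulated data. Genes needed 3 probes, windows 20, flanks and split genes 10 each. Segmentation was exact penalised least squares (numba 0.67.0, numpy 2.4.6, scipy 1.17.1 and pandas 2.3.3 under Python 3.11.15). Each 95% interval was computed over blocks of 10 adjacent probes, or over single probes in short regions, and covers probe error on 1 array only.

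The kinases, lists and tests were chosen with earlier results of these data known. Text names the 5 kinases, neighbours and list genes past the gene test or with a window of at least 0.2 in size in a line, and the 2 nearest genes per kinase (results that need 2 of the genes this rule takes are not reported here); genes of the stretch around Ret were added after its values were seen. Alternatives were normexp correction, within-array loess, the value table, a filter on dim probes, a base composition correction, probe medians, other probe minimums, window widths, step and segment settings, lines 2 and 3 averaged as 1 sample, and leaving out each line.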

Additional observations from a re-analysis of the deposited data

How the results depend on the processing

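Of 298 alternative values, 278 kept their side of the threshold or stayed within the spread, 10 counts moved, 10 single values newly passed and 0 changed the direction of a call. A change of direction was counted only for a value that passed at the main settings, which only the flank difference of Ret did. The flank difference of Ntrk2 passed on opposite sides of 0, at -0.09 with normexp correction and 0.11 with 1 Mb on each side. The count of gene means past the threshold stayed at 0 under all alternatives. The count of windows went from 0 to 1 (Ret) with the authors' value table and with 250 kb on each side. The count of end-to-end differences ranged from 0 to 1 when 1 line was left out (Ntrk3, without line 1). The count of flank differences went from 1 to 2 with normexp correction (Ntrk2 and Ret), 3 with the value table (Ntrk3, Ret and Ros1), 2 of 3 tested with 250 kb on each side (Ntrk3 and Ret) and 3 with 1 Mb on each side (Ntrk2, Ret and Alk), and ranged from 1 to 2 when 1 line was left out (Ret and Ros1, without line 1). Steps went from 0 to 2 (Ret in lines 2 and 3) with the split inside the gene over its window, chosen after seeing the data. Segments went from 0 to 1 (Ret in line 3) at a penalty of 2 log(n) and with segments of 5 probes or more. The cause was not tested in any of these. The interval between Gopc and Ros1 stayed within the spread between lines. No paired analysis was possible because all lines belong to 1 group. Each line has 1 array, lines 2 and 3 share an animal number, and dye and slide effects cannot be told apart from shared changes. Balanced exchanges, changes in a minority of cells and changes below the probe spacing (median 10878 bases) were not measurable.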
